A study of Mus musculus with 6 samples.

Results

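Fibronectin and the matricellular proteins were followed through 10 genes taken by symbol, *Fn1*, *Tnc*, *Postn*, *Thbs1*, *Thbs2*, *Sparc*, *Spp1*, *Fbln1*, *Fbln2* and *Vtn*, out of the 24982 genes measured. The study compared keratinocytes from neonatal skin of C57BL/6 mice that were kept in either of a pair of media, called lines here, in 3 RNA-seq libraries of each, with no treatment. The KSFM-Ca2+ cells were derived and kept in a low-calcium medium. The DKSFM cells descend from them and were adapted to a defined medium with more calcium, in which most cells were lost before the survivors grew out. Medium and selection thus cannot be told apart, and the sources used here give neither what a replicate was nor whether the libraries of a line come from 1 derivation or more. P-values therefore measure the spread between libraries, which may be technical.

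Each value is a gene's mean read coverage per base, written to 1 decimal and scaled between libraries by the trimmed mean of M values. Coverage is already per length, so levels of different genes can be set side by side. Total coverage was 1601676, 1238411 and 1057750 in KSFM-Ca2+ replicates 1 to 3 and 1174348, 1239438 and 1170675 in DKSFM replicates 1 to 3. Reads per gene were not used here. The bulk libraries cannot tell fewer cells that express a gene from less RNA per cell.

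Fibronectin is a large glycoprotein that cells assemble into fibrils through integrins, and it is deposited in healing wounds where keratinocytes migrate over it. Matricellular proteins are secreted into the matrix but serve mainly to tune adhesion, growth factor activity and matrix assembly. Many of them are low in resting epidermis and are known for their rise in wounds and tumours. Dermal fibroblasts are the major source of several of them in skin, while cultured keratinocytes also make fibronectin, tenascin-C and thrombospondin-1.

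The DKSFM cells carried at least 2-fold more RNA for 4 of these genes. *Fbln1* and *Postn* went from listed values of 0.9 or less in each KSFM-Ca2+ library to 15.4 or more in each DKSFM library, *Fn1* rose 4.35-fold and *Spp1* rose 2.89-fold as ratios of mean normalized coverage. *Tnc* and *Sparc* rose without reaching 2-fold. *Fbln2* and *Thbs1* fell without reaching 2-fold, and *Thbs2* and *Vtn* were listed at 0 in all 6 libraries.

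**Figure D1:**
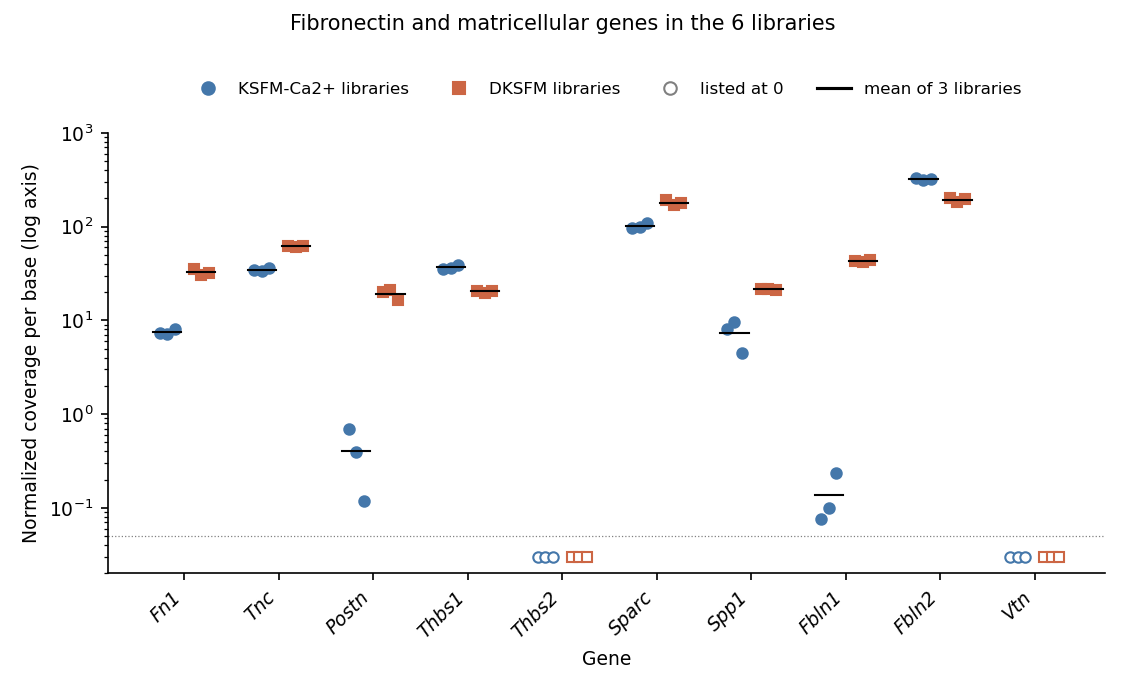
Normalized coverage per base (log axis) of the 10 genes in each library, with KSFM-Ca2+ libraries as circles, DKSFM libraries as squares and the mean of 3 libraries as a line. Open symbols under the dotted line are libraries listed at 0, which holds for all 6 libraries of *Thbs2* and *Vtn*, while *Fbln1* lies between 0.0762 and 0.236 in the KSFM-Ca2+ libraries and between 42.3 and 44.1 in the DKSFM libraries.

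A gene was called when limma gave an adjusted p under 0.01 and the difference was at least 2-fold on the log2(normalized coverage + 0.1) scale. Of the 10 genes, 8 passed a filter that asked for 3 libraries or more with a normalized coverage of 0.5 or more. Among these 8, 4 were called higher in the DKSFM cells, against 1636 of all 12409 tested genes (13.2%). *Fbln1* passed that filter through the DKSFM libraries alone, and *Postn* reached it in 1 KSFM-Ca2+ library, so the count and the median of these genes are given as a description. With the filter asked of every library 2 of the genes were called higher, beside 1032 of 11112 tested genes. None of the 8 was called lower with limma, where 1307 of all tested genes were (10.5%). The unadjusted p of limma was under 0.05 for 2 genes that were lower and 6 that were higher. Over all 12409 tested genes it was under 0.05 for 5119 that were lower and 5040 that were higher. All 8 had an adjusted p under 0.01 at some size of difference, as 72.6% of all tested genes did, and in all 8 the libraries of the lines lay apart, as they did in 83.3% of all tested genes. Their median log2 fold change was 1.21, beside -0.0012 over all tested genes.

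**Figure D2:**
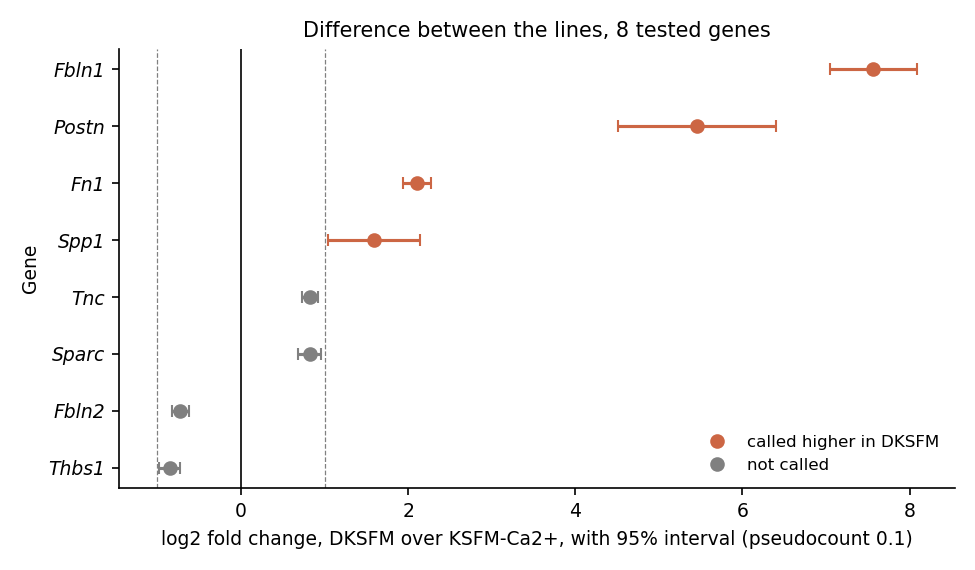
Log2 fold change of DKSFM over KSFM-Ca2+ for the 8 tested genes, with the 95% interval of limma as bars and dashed lines at a 2-fold difference. *Fbln1* is at 7.57, *Postn* at 5.45, *Fn1* at 2.11 and *Spp1* at 1.59, while the other 4 lie between the dashed lines.

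*Fn1* encodes fibronectin. Its normalized coverage was 7.39, 7.12 and 8.14 in the KSFM-Ca2+ libraries and 35.4, 30.8 and 32.3 in the DKSFM libraries. All DKSFM libraries lay above all KSFM-Ca2+ libraries, with a log2 fold change of 2.11 (standard error 0.07, adjusted p = 6.32e-08 with limma). In the order of tested genes by mean coverage, *Fn1* moved from above 27.6% of them in the KSFM-Ca2+ cells to above 56.1% in the DKSFM cells. *Fn1* was among the cell-matrix genes that the study had picked from these libraries, so its direction is not independent of that choice. Vitronectin, the other plasma adhesion protein of the group, is made mainly in liver, and its gene *Vtn* was listed at 0 throughout.

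The fibulins bind fibronectin and elastic fibres, and their 2 members moved in opposite directions. *Fbln2* had the highest level of the 10 genes in the KSFM-Ca2+ cells, with 328, 315 and 319 in the KSFM-Ca2+ libraries and 202, 181 and 199 in the DKSFM libraries. The lines did not overlap, and the difference was 1.65-fold as a ratio of means (log2 fold change -0.72, standard error 0.04, adjusted p = 1.21e-06 with limma). *Fbln1* was listed at 0.1, 0.1 and 0.2 in the KSFM-Ca2+ libraries, and reached 40.2, 42.3 and 41.6 in DKSFM replicates 1 to 3 before scaling. With the read length of the study and the median length of its transcripts, a listed 0.1 of *Fbln1* corresponds to about 3 reads and 42.3 to about 1131 reads. The KSFM-Ca2+ libraries thus sat at or just above the rounding step, and the DKSFM libraries were all far above it.

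The log2 fold change of *Fbln1* was 7.57 (standard error 0.22, adjusted p = 2.58e-08 with limma), and its size depends on the pseudocount, with 5.28 at a pseudocount of 1. *Fbln1* was tested only because its DKSFM libraries passed the filter, and its KSFM-Ca2+ values lie near the rounding step. Its standard error and p-value are therefore given as a description. *Fbln1* made up 0.0429% ± 0.0272 (SD, n = 3) of the summed *Fbln1* and *Fbln2* coverage in the KSFM-Ca2+ cells and 18.2% ± 0.734 (SD, n = 3) in the DKSFM cells. Among the DKSFM libraries this share was 17.4%, 18.9% and 18.2%. *Fbln2* thus kept the larger level of the pair in every library.

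*Postn* encodes periostin, a matricellular protein of wounded and mechanically loaded tissue that binds integrins, fibronectin and tenascin-C. It was listed at 0.9, 0.4 and 0.1 in the KSFM-Ca2+ libraries, about 28, 13 and 3 reads, and reached 19.1, 21.2 and 15.4 in DKSFM replicates 1 to 3. The lines did not overlap, and the KSFM-Ca2+ libraries spread widely at these low values. Its log2 fold change was 5.45 (standard error 0.41, adjusted p = 4.53e-06 with limma). The value was 3.87 at a pseudocount of 1, and 6.42 when only the libraries whose files carry the word combined were kept, that is KSFM-Ca2+ replicate 3 and the DKSFM libraries.

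*Spp1* encodes osteopontin, a phosphoprotein ligand of integrins and of CD44. Its normalized coverage was 8.15, 9.49 and 4.48 in the KSFM-Ca2+ libraries and 21.6, 21.6 and 20.9 in the DKSFM libraries. KSFM-Ca2+ replicate 3 was the lowest, and the lines did not overlap (log2 fold change 1.59, standard error 0.24, adjusted p = 0.000334 with limma). The log2 fold change was 1.27 without KSFM-Ca2+ replicate 3, and 2.22 with that library as the only one of its line, whose spread was then assumed to be that of the DKSFM libraries. The gene was called in both cases.

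The starts of *Fbln1*, *Postn* and *Spp1* are shown because these genes rose in the same cells, and that of *Thbs2* because it was listed at 0 in both lines. RefSeq starts were matched for 8 of the 10 genes, and the other 2 were *Fn1* and *Thbs1*. Each line gives the 250 bases before the start nearest to that of GENCODE, from RefSeq on GRCm38.p6, 5′ to 3′ along the gene's strand, and none of these bases lies in an annotated exon. *Fbln1* is at chr15:85205699-85205948 on the plus strand, *Postn* at chr3:54360857-54361106 on the plus strand, *Spp1* at chr5:104434861-104435110 on the plus strand and *Thbs2* at chr17:14694263-14694512 on the minus strand. Capitals mark matches on either strand to TATAAA of the TATA box, to CCAAT of the CCAAT box, to GGGCGG of the GC box, to TGACTCA of AP-1 sites, to CAGGTG of E-boxes or to GGAATG of TEAD sites, and no matches overlap in the windows shown.
Fbln1: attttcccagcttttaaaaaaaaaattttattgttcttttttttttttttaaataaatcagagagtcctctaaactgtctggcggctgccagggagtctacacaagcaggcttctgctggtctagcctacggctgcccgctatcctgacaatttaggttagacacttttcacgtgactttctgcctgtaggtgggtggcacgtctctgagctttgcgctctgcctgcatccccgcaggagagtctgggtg
Postn: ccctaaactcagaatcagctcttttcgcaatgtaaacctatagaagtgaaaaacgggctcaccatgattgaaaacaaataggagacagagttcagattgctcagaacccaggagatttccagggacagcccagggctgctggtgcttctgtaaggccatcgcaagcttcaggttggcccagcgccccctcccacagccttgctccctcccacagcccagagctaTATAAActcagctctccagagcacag
Spp1: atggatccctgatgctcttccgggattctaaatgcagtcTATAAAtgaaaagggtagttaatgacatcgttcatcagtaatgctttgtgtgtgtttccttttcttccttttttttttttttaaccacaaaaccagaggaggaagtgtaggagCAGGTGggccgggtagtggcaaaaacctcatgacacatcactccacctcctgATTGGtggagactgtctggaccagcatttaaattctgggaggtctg
Thbs2: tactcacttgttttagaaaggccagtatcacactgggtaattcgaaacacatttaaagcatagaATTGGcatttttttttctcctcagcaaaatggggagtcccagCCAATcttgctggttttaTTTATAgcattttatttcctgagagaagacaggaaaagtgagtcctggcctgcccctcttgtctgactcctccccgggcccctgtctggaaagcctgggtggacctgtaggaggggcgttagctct

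The *Fbln1* window held none of the 6 motifs. TATAAA occurred once in the *Postn* window, from 26 to 21 bases before the start, once in the *Spp1* window from 211 to 206 bases before it, and once in the *Thbs2* window on the other strand. This motif stood in 12.4% of all 32851 RefSeq windows of that length. CCAAT had 1 match in the *Spp1* window and 2 in the *Thbs2* window, and stood in 33.8% of all windows. CAGGTG had 1 match, in *Spp1*, and stood in 17.2% of all windows. The letters of the GC box, AP-1 and TEAD motifs had no match in the 4 windows and stood in 32.7%, 4.46% and 12.6% of all windows. Since the *Fbln1* window held none, no motif of the 6 could be common to the windows of *Fbln1*, *Postn* and *Spp1*. The windows of *Postn* and *Spp1* each held TATAAA, as did that of *Thbs2*. *Tnc* also rose, and its window, not shown, held 1 match to TATAAA and 1 to GGGCGG.

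*Tnc* encodes tenascin-C, a multi-armed glycoprotein that loosens adhesion to fibronectin. Its normalized coverage was 34.2, 33.9 and 36.5 in the KSFM-Ca2+ libraries and 62.3, 60.8 and 62.2 in the DKSFM libraries. *Sparc*, for a collagen-binding calcium-dependent glycoprotein also called osteonectin, had 97.6, 100.1 and 109 in the KSFM-Ca2+ libraries and 194, 169 and 179 in the DKSFM libraries. Both genes had a log2 fold change of 0.82 with no overlap between the lines, under the 2-fold threshold (adjusted p = 3.72e-07 for *Tnc* and 3.77e-06 for *Sparc* with limma). *Tnc* was also in the study's own selection of stem cell markers.

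The thrombospondins are secreted glycoproteins that bind many matrix and cell surface proteins, and thrombospondin-1 can activate latent TGF-beta. *Thbs1* had 35.0, 36.6 and 39.4 in the KSFM-Ca2+ libraries and 20.8, 19.7 and 20.8 in the DKSFM libraries. It was 1.81-fold higher in the KSFM-Ca2+ cells as a ratio of means, with no overlap between the lines (log2 fold change -0.85, standard error 0.05, adjusted p = 1.85e-06 with limma). *Thbs2*, the close relative of *Thbs1* that is typical of fibroblasts, was listed at 0 in all libraries. For *Thbs2* the rounding step of 0.1 corresponds to about 4.7 reads at the median length of its transcripts, and levels that round to 0 could not be seen.

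The order of the 10 genes by level changed between the lines. In the KSFM-Ca2+ cells it ran *Fbln2*, *Sparc*, *Thbs1*, *Tnc*, *Fn1*, *Spp1*, *Postn* and *Fbln1*, followed by *Thbs2* and *Vtn* at 0. In that order *Thbs1* and *Tnc*, *Fn1* and *Spp1*, and *Postn* and *Fbln1* overlapped in their libraries. In the DKSFM cells it ran *Fbln2*, *Sparc*, *Tnc*, *Fbln1*, *Fn1*, *Spp1*, *Thbs1* and *Postn*. There *Fbln2* (181 to 202) overlapped with *Sparc* (169 to 194), and *Thbs1* overlapped with *Postn*, while the other neighbours above 0 did not. *Fbln1* moved from the eighth place to the fourth, and *Thbs1* from the third to the seventh.

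The summed coverage of the 10 genes was 511, 502 and 517 in the KSFM-Ca2+ libraries and 599, 547 and 574 in the DKSFM libraries, and the lines did not overlap. Its makeup shifted more than its size. *Fbln2* alone gave 64.1%, 62.6% and 61.7% of it in the KSFM-Ca2+ libraries and 33.7%, 33.2% and 34.6% in the DKSFM libraries. The share of *Sparc* was 19.1%, 19.9% and 21.1% in the KSFM-Ca2+ libraries and 32.4%, 30.9% and 31.2% in the DKSFM libraries. *Fn1*, *Spp1*, *Fbln1* and *Postn* gave 1.48%, 1.45%, 0.0267% and 0.0786% in the KSFM-Ca2+ cells and 5.72%, 3.73%, 7.51% and 3.37% in the DKSFM cells, as means of 3 libraries.

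**Figure D3:**
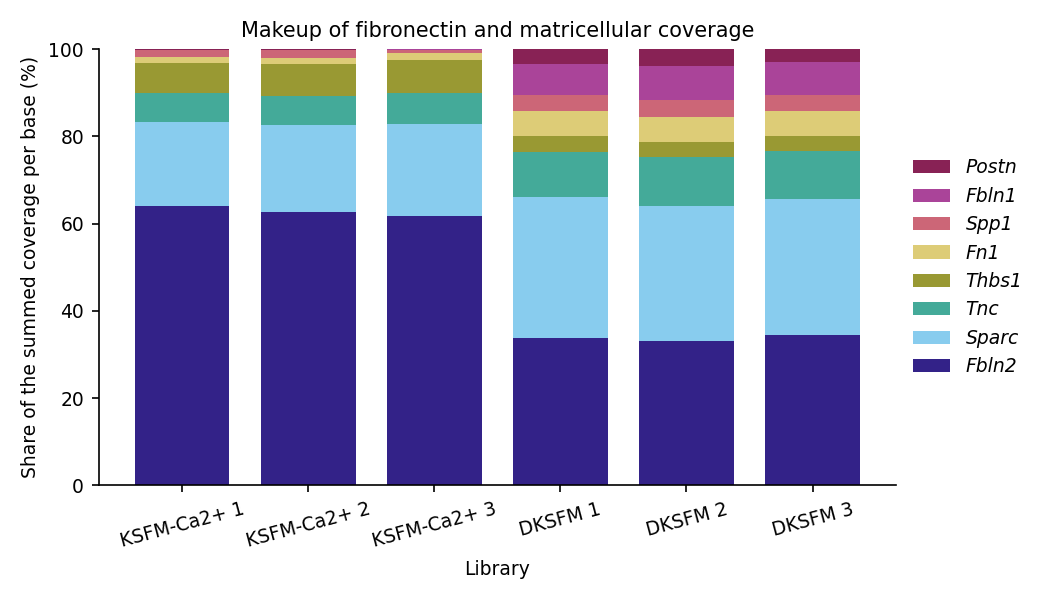
Share of each gene in the summed normalized coverage per base of the 10 genes, as stacked bars for each library (% of the sum). *Fbln2* falls from 61.7% or more in the KSFM-Ca2+ libraries to 34.6% or less in the DKSFM libraries, and *Fbln1* and *Postn* become visible only in the DKSFM bars.

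The genes lie on 9 chromosomes, with *Sparc* and *Vtn* on chromosome 11. In GENCODE M21 on GRCm38, *Fn1* spans chr1:71585520-71653200, *Postn* chr3:54361109-54391037, *Spp1* chr5:104435118-104441050, *Fbln2* chr6:91212455-91272540 and *Fbln1* chr15:85205949-85286535. All 10 are protein-coding. The 211 tested genes within 10 Mb of *Fbln1* had a median log2 fold change of -0.05, the 44 around *Postn* -0.13, the 102 around *Spp1* -0.01 and the 80 around *Fn1* -0.28. Around *Fbln2*, which was lower in the DKSFM cells, the median of 124 genes was 0.31, and around *Tnc* that of 53 genes was 0.46. *Spp1* shares exon bases with *Gm42793* on the same strand, and *Fn1*, *Tnc* and *Thbs1* each share some with a gene on the opposite strand. Reads of *Gm42793* cannot be told apart from those of *Spp1*. The libraries were directional and aligned with a strand setting, but the sources used here do not say whether the coverage of a gene was taken from its own strand, so a part of the opposite partners is not excluded.

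Cell type markers were set beside these values, since fibroblasts are a known source of the same proteins. The basal keratinocyte genes *Krt14* and *Krt5* were the leading markers in both lines, at 11975 and 4684 in the KSFM-Ca2+ cells and 29719 and 11148 in the DKSFM cells as means. Both were called higher (log2 fold changes 1.31 and 1.25), and *Krt14* was under 2-fold with quantile normalization (0.93). Of 6 basal markers, 2 were called higher and 0 lower, beside 13.2% and 10.5% of all tested genes. *Trp63*, *Itga6* and *Col17a1* rose without reaching 2-fold (log2 fold changes 0.13, 0.14 and 0.37). *Itgb4* went the other way, with means of 321 and 192 (log2 fold change -0.74, adjusted p = 4.43e-07 with limma). Of 10 dermal fibroblast markers, 7 were listed at 0 in all 6 libraries, namely *Col1a1*, *Col1a2*, *Col3a1*, *Pdgfrb*, *Dcn*, *Lum* and *Thy1*. The summed fibroblast markers were 8.76, 8.21 and 8.38 in the KSFM-Ca2+ libraries and 2.44, 2.20 and 2.23 in the DKSFM libraries. The fall of this sum is that of *Twist2*, with means of 7.34 and 0.0354 (log2 fold change -5.87, and -3.01 at a pseudocount of 1, adjusted p = 4.34e-07 with limma). *Twist2* passed the filter through the KSFM-Ca2+ libraries alone. It was not tested with the filter asked of every library or with the combined libraries only. *Pdgfra*, which made up most of the sum in the DKSFM cells, went the other way. At means of 1.11 and 2.22 it rose without reaching 2-fold (log2 fold change 0.95, adjusted p = 0.000732 with limma), and passed 2-fold without KSFM-Ca2+ replicate 3 (1.07). Its log2 fold change was 0.61 at a pseudocount of 1, 0.71 with quantile normalization and 0.73 with the combined libraries only.

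Of 8 markers of mesenchymal transition 4 were tested. Of these, 2 were called higher and none lower with limma, beside 13.2% and 10.5% of all tested genes. The unadjusted p of limma was under 0.05 for 2 that were higher and 1 that was lower, beside 5040 and 5119 of all 12409 tested genes. The sum of the 8 was 93.4, 93.0 and 91.9 in the KSFM-Ca2+ libraries and 165, 164 and 155 in the DKSFM libraries, and most of its rise was that of *Snai2*, with means of 66.3 and 136. *Snai2* and *Zeb2* were called higher (log2 fold changes 1.04 and 2.83, the latter 1.99 at a pseudocount of 1). Among the untested markers, *Vim* was listed at 0.6 or less in every library, with means of 0.0723 and 0.418. *Cdh2* went the other way, with means of 0.632 and 0.241, and neither gene overlapped between the lines. *Zeb1* and *Snai1* were listed at 0.3 or less in every library. *Twist1* fell without reaching 2-fold (log2 fold change -0.53), and *S100a4* did not pass the test (adjusted p = 0.0679 with limma). The part of these genes in the result was not tested.

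The 5 endothelial markers summed to 2.82, 3.16 and 3.30 in the KSFM-Ca2+ libraries and 8.28, 8.29 and 7.42 in the DKSFM libraries. *Pecam1*, their most abundant gene and the 1 that was tested, was called higher, with means of 2.78 and 7.58 (log2 fold change 1.42, adjusted p = 3.95e-06 with limma), while the defining *Cdh5* and *Emcn* were listed at 0 in all libraries. The 5 immune markers summed to 10.8, 11.2 and 12.5 in the KSFM-Ca2+ libraries and 13.7, 18.9 and 20.7 in the DKSFM libraries, led by *Cd68*, with *Cd3e* at 0. The pericyte and smooth muscle markers summed to 1.30 at most, with *Des* the highest by mean in the KSFM-Ca2+ cells and *Acta2* in the DKSFM cells, and the melanocyte markers to 0.890 at most, led by *Pmel*, with *Dct* and *Tyr* at 0. The 4 suprabasal markers summed to 24.8, 24.9 and 25.7 in the KSFM-Ca2+ libraries and 22.1, 24.2 and 22.7 in the DKSFM libraries. These sums did not overlap, and single genes moved apart. *Lor* was called higher, with means of 0.331 and 3.99 (log2 fold change 3.42, adjusted p = 7.01e-05 with limma). It reached the filter in 1 KSFM-Ca2+ library, and its log2 fold change was 1.92 at a pseudocount of 1 and 2.55 with KSFM-Ca2+ replicate 3 as the only library of its line. By contrast *Ivl*, the most abundant, fell from 21.3 to 13.5 without reaching 2-fold. *Krt10* had means of 3.49 and 5.002, and *Krt1*, not tested, had 0 and 0.514.

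Relatives of the matricellular proteins were followed in a list of 31 genes, of which 30 were matched by symbol and 9 passed the filter. The other 21 stayed below a normalized coverage of 0.5 in every library, 11 of them at 0 throughout. Of the 9 tested, 4 were called higher and 1 was called lower in the DKSFM cells, where 13.2% and 10.5% of all tested genes were, and the median log2 fold change was 0.85. Of the 4, *Wisp1*, *Efemp2* and *Thbs3* passed the filter through the DKSFM libraries alone, so the counts are given as a description, and with the filter asked of every library 1 relative was called higher and 0 lower. *Tgfbi*, for a secreted relative of periostin, had a mean of 28.9 in the KSFM-Ca2+ cells and 391 in the DKSFM cells (log2 fold change 3.76, standard error 0.07, adjusted p = 2.81e-09 with limma). The study had picked *Tgfbi* for its cell-matrix selection from these libraries. In the DKSFM cells its level was above those of *Fbln2* and *Sparc*, the highest of the 10 genes, which overlapped with each other there.

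*Wisp1*, a member of the CCN family, was listed at 0.1, 0.1 and 0 in the KSFM-Ca2+ libraries while DKSFM replicates 1 to 3 had 13.8, 15 and 13.2. Its log2 fold change was 6.59, and 3.88 at a pseudocount of 1. The other tested CCN genes went the other way, with log2 fold changes of -0.80 for *Cyr61* and -0.85 for *Ctgf*, both under 2-fold. KSFM-Ca2+ replicate 3 had the highest value of both. With it as the only library of its line both were called lower (-1.07 and -1.05), and without it the values were -0.67 and -0.74. *Efemp2*, a fibulin also called fibulin-4, and *Thbs3* were called higher, at means of 2.23 and 2.25 in the DKSFM cells. *Igfbp7*, for a secreted protein that binds insulin-like growth factors, was listed at 1247, 986.3 and 858.6 in the KSFM-Ca2+ libraries while DKSFM replicates 1 to 3 had 0.5, 0.3 and 0.3. Its log2 fold change of -11.02 (-9.47 at a pseudocount of 1) was the largest in size among the genes listed here.

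Receptors of these proteins were followed in a list of 20 genes, 16 of which passed the filter. Of these, 4 were called higher and 5 were called lower in the DKSFM cells, beside 13.2% and 10.5% of all tested genes, and the median log2 fold change was -0.09. With the filter asked of every library 3 were called higher, since *Itgb8* passed it through the DKSFM libraries alone. The study had chosen *Itgb1*, *Cd44*, *Itgb6* and *Itgb7* for its own selections from these libraries, so their directions are not independent evidence. The genes called lower had means of 27.3 or more in the KSFM-Ca2+ cells, and those called higher had means of 15.4 or less in the DKSFM cells.

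**Figure D4:**
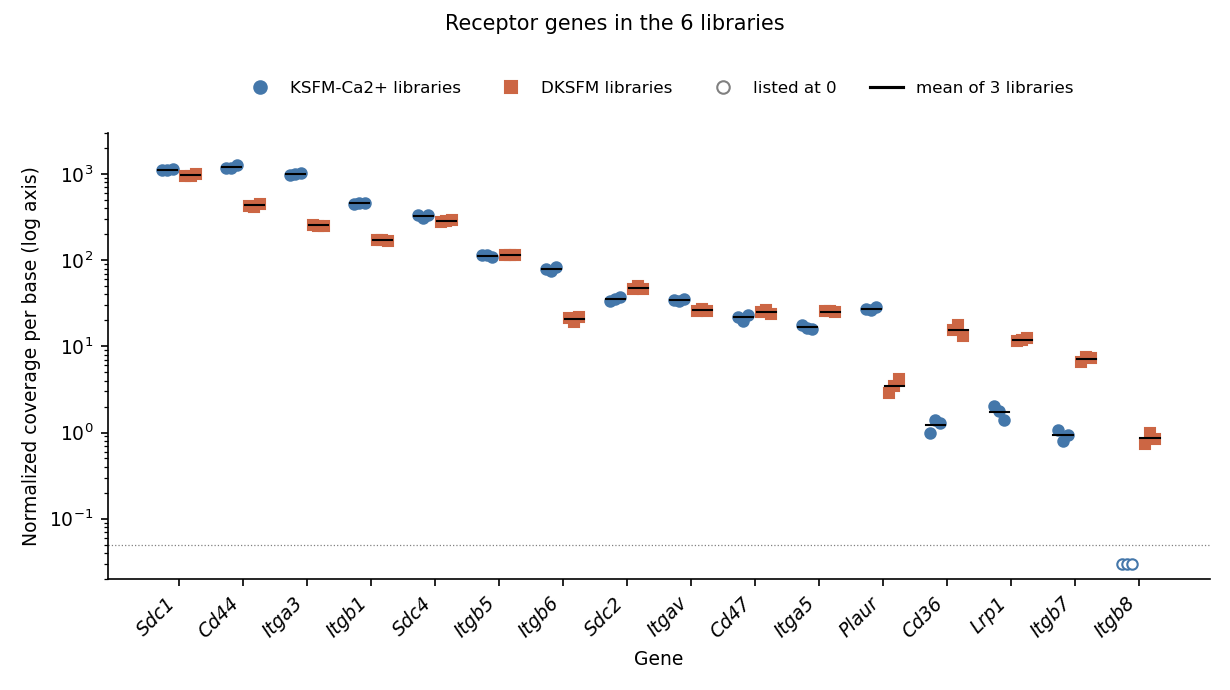
Normalized coverage per base (log axis) of the 16 tested receptor genes in each library, ordered by mean level, with KSFM-Ca2+ libraries as circles, DKSFM libraries as squares and the mean of 3 libraries as a line. Open symbols under the dotted line are libraries listed at 0, and *Cd36*, *Lrp1*, *Itgb7* and *Itgb8*, the genes called higher, all have DKSFM means of 15.4 or less.

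Fibronectin is bound mainly by the integrin of the alpha 5 and beta 1 chains. *Itgb1* had a mean of 459.7 ± 6.12 in the KSFM-Ca2+ cells and 169.6 ± 4.06 in the DKSFM cells (SD, n = 3 libraries, log2 fold change -1.44, adjusted p = 3.42e-09 with limma). *Itga5* had means of 16.6 and 25.3 and rose without reaching 2-fold (log2 fold change 0.61, adjusted p = 1.14e-05 with limma). The partner chains thus differed in opposite directions, while *Itga5* was the lower of the pair in both lines. *Itga3*, whose product pairs with beta 1 to bind laminin-332 and can bind thrombospondin-1, had means of 1001 and 253 (log2 fold change -1.98).

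Among the chains that pair with alpha v, *Itgb6* fell by 1.92 on the log2 scale from a mean of 78.7 to 20.8. The integrin of alpha v and beta 6 binds fibronectin, tenascin-C and latent TGF-beta. *Itgb5*, a chain of a vitronectin receptor, had means of 113 and 115 with overlapping libraries (log2 fold change 0.02, adjusted p = 0.63 with limma). *Itgav* itself fell without reaching 2-fold (log2 fold change -0.41). *Itgb8* was listed at 0 in all KSFM-Ca2+ libraries while DKSFM replicates 1 to 3 had 0.7, 1 and 0.8, so no fold is given. It was no longer called at a pseudocount of 1. *Itgb7* had means of 0.934 and 7.20 (log2 fold change 2.83, and 2.08 at a pseudocount of 1). *Itga4*, for alpha 4, the only possible partner chain of beta 7 followed here, was listed at 0.1 or less in every library. *Itga8* was listed at 0.1 or less too, and *Itga9* and *Itgb3* were listed at 0 in all libraries.

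Of the other receptors, *Cd44* fell by 1.47 on the log2 scale, to a mean of 432 in the DKSFM cells. The thrombospondin-1 receptors *Cd36* and *Cd47* had means of 1.22 and 21.7 in the KSFM-Ca2+ cells and 15.4 and 25.1 in the DKSFM cells. *Cd36* was called higher (log2 fold change 3.55, and 2.88 at a pseudocount of 1), and *Cd47* did not pass the test (log2 fold change 0.21, adjusted p = 0.0251 with limma). *Lrp1*, an uptake receptor for thrombospondins and proteases, was called higher, with means of 1.75 and 11.9. *Plaur*, the urokinase receptor, which also binds vitronectin, was called lower, with means of 27.3 and 3.50. The syndecans *Sdc1*, *Sdc2* and *Sdc4*, whose heparan sulfate chains bind fibronectin, had log2 fold changes of -0.23, 0.43 and -0.20, all under 2-fold.

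Inside the cell, integrins are tied to actin by adaptor proteins, followed here in 16 genes with 14 tested. Of these, 1 was called higher and 3 were called lower in the DKSFM cells, beside 13.2% and 10.5% of all tested genes, and the median log2 fold change was -0.38. *Fermt2*, for kindlin-2, had means of 5.78 and 1.14 (log2 fold change -2.21). *Bcar1*, for the docking protein p130Cas, had means of 151 and 55.0 (log2 fold change -1.46), and *Parva*, for the partner of integrin-linked kinase alpha-parvin, had means of 113 and 50.6 (log2 fold change -1.16). *Tns3*, for a tensin, was called higher, with means of 7.76 and 20.3. *Zyx*, for zyxin, had the highest mean of the list over the 6 libraries, though not in the KSFM-Ca2+ cells alone, and rose without reaching 2-fold (log2 fold change 0.52).

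TGF-beta is a known inducer of *Fn1*, *Postn* and *Tnc*, and its handling was followed in 18 genes with 12 tested. The ligand gene *Tgfb1* had means of 59.7 and 22.7 (log2 fold change -1.40, adjusted p = 5.09e-07 with limma). *Tgfb2* was called higher at a low level, with means of 0.0838 and 0.657, and was under 2-fold at pseudocounts of 0.5 and 1 (log2 fold changes 0.99 and 0.61). *Tgfb2* passed the filter through the DKSFM libraries alone, so its call is given as a description. *Ltbp1*, whose product anchors latent TGF-beta in the fibronectin matrix, had means of 74.3 and 178 (log2 fold change 1.26). *Tgfbr3* was called lower (log2 fold change -1.31). *Tgfbr2* had the highest mean of the list and rose without reaching 2-fold (log2 fold change 0.39). *Tgfbr2* was in a selection that the study made from these libraries.

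Proteases that cut these matrix proteins were followed in 11 genes with 8 tested. Of these, 3 were called higher and 1 was called lower in the DKSFM cells, beside 13.2% and 10.5% of all tested genes, and the median log2 fold change was 0.30. With the filter asked of every library or at pseudocounts of 0.5 and 1, 2 were called higher. *Mmp2*, for gelatinase A, had means of 2.44 and 15.3 (log2 fold change 2.60), and *Adamts1* had means of 44.5 and 114 (log2 fold change 1.37). *Plau*, for urokinase, had means of 164 and 38.6 (log2 fold change -2.08), and *Plat*, for the tissue-type activator, had 0.486 and 1.46 (log2 fold change 1.41). *Plat* was under 2-fold at pseudocounts of 0.5 and 1 (log2 fold changes 0.98 and 0.72). *Htra1*, for a serine protease that can cleave fibronectin, had the highest level of the list, with means of 2665 and 1819 (log2 fold change -0.55). The study had picked *Mmp2* and *Plau* from these libraries.

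**Figure D5:**
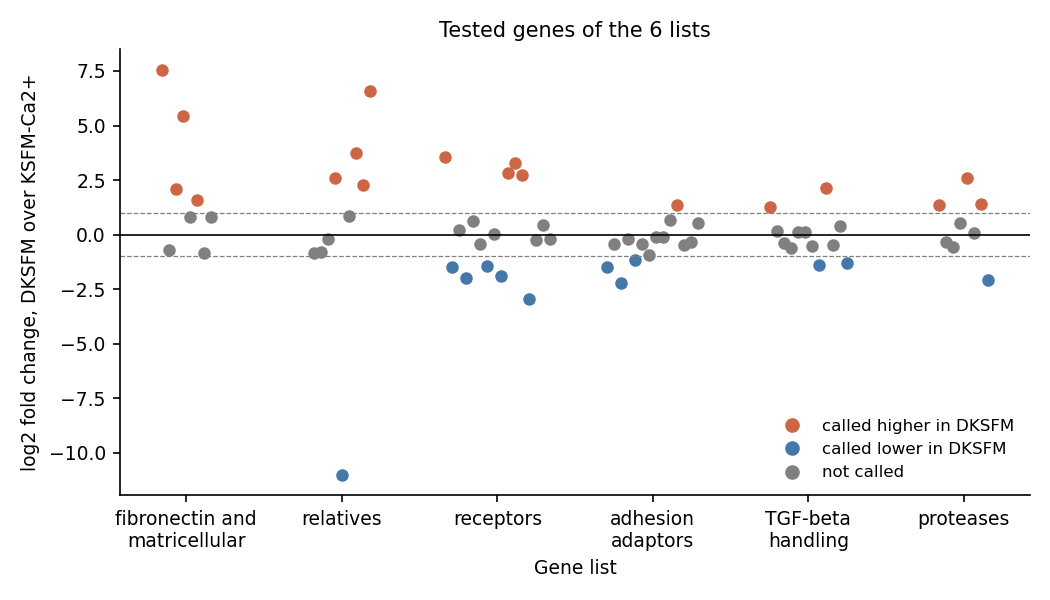
Log2 fold change of DKSFM over KSFM-Ca2+ for each tested gene of the 6 lists, 1 point a gene, with dashed lines at a 2-fold difference. The points of fibronectin and the matricellular genes reach from -0.85 to 7.57, and those of their relatives from -11.02 to 6.59.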

How the data were processed

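The authors made directional poly(A) libraries, sequenced them as single reads, aligned them with STAR to mm10 with RefSeq genes and compared the lines with DESeq2, which was not used here. The deposited signal is a mean of read coverage over each gene's bases, neither filtered nor scaled to library size. Since coverage is not a count, limma 3.58.1 in R 4.3.3 was used, with an intensity trend and no covariate, on the 6 libraries grouped by their labels. Scaling was an unweighted trimmed mean of M values (trims of 30% and 5%, factors from 0.991 to 1.01), with a pseudocount of 0.1 (the rounding step). Adjustment was by Benjamini-Hochberg over all tested genes. No counting interval is given without counts, and the step limits low values. The procedure was tested on simulated data, with no outcome given here. Figures were drawn with Python 3.11.15 and matplotlib 3.10.9.

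Members and lists were chosen with earlier results of these data known. The genes given by name were all 10 members, every tested receptor, and, for each other list, its gene with the highest mean and up to 4 called genes per direction, by size of change, whose higher line had a mean of 1 or more. Cell type markers could be named too. A TGF-beta gene was taken off its list after the analysis and is not reported here, so no called count or median of that list is given. *Cyr61*, *Ctgf*, *Tgfb2*, the untested receptors and the genes that share exons were named after their values were seen. The alternatives were relative log expression, library totals and quantile scaling, pseudocounts of 0.5 and 1, the filter dropped or applied to every library, no trend, a replicate block, an adjusted p of 0.05, leaving out single libraries, and keeping the libraries marked as combined.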

Additional observations from a re-analysis of the deposited data

How the results depend on the processing

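The 8 tested genes kept their direction and their side of the threshold under each of the 17 alternatives that could give a value. *Fbln1* and *Postn* have 16 such values, since the filter of 0.5 in every library left them out. Across the alternatives the log2 fold change ranged from 1.98 to 2.16 for *Fn1*, 1.27 to 2.22 for *Spp1*, 3.87 to 6.42 for *Postn*, 5.28 to 7.87 for *Fbln1*, 0.76 to 0.86 for *Tnc*, 0.73 to 0.88 for *Sparc*, -0.75 to -0.65 for *Fbln2* and -0.95 to -0.81 for *Thbs1*. Quantile normalization moved the median of all genes to -0.05, further than the other scalings, and gave 1463 tested genes called higher and 1487 lower.

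The filter of 0.5 in every library leaves out genes near 0 in 1 line. It gave 1032 tested genes called higher and 955 lower, 2 of the 10 genes called higher, and 1 relative called higher and 0 called lower. With no filter 7 relatives were called higher and 2 proteases called lower, as genes of low coverage entered the test. *Tgfb2* was not tested with the filter in every library or with quantile normalization, and was under 2-fold at pseudocounts of 0.5 and 1. With the combined libraries only, which leave 1 KSFM-Ca2+ library, 1641 tested genes were called higher and 988 lower, and 2 relatives were called lower, *Cyr61* and *Ctgf*, as *Igfbp7* no longer passed the filter. Without single libraries, 4 to 5 relatives were called higher, and 1610 to 1704 tested genes were called higher and 1295 to 1328 lower.

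*Itgb5*, which did not pass the test, ran from -0.0082 (without KSFM-Ca2+ replicate 3) to 0.034 on leaving out single libraries, and the cause was not tested. *Krt14*, called higher at 1.31, was under 2-fold at 0.93 with quantile normalization. Over the 58 genes followed through the alternatives, 962 values kept their direction and their side of the threshold, 6 no longer passed it, 3 newly passed it and 1 changed sign. *Cd68*, *Trp63*, *Itga6*, *Itgb4* and *Col17a1* were tested but not followed in this way. With a replicate block 1641 tested genes were called higher and 1304 lower, 4 and 0 of them among the 10 genes. The numbers did not pair the libraries, as deviations of same-numbered libraries correlated at -0.07, 0.05 and -0.02, and the block changed no count of the lists.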
